A study of Rattus norvegicus with 6 samples.

Results

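The genes described here are the ligands, receptors and modulators of Wnt signalling in rat H9C2 cells, taken as the protein-coding genes of the count table whose symbols belong to the families Wnt, Fzd, Dkk, Sfrp, Rspo, Dvl, Axin and Nkd or to a short list of named single genes. The single genes and small groups were Lrp5 and Lrp6, Lgr4 to Lgr6, Tcf7 and its relatives, Lef1, Ctnnb1, Apc, Wls, Porcn, Rnf43 and Znrf3. This choice took 44 of the 19825 genes in the table. A further 19 rat genes with such symbols in RefSeq, among them Wnt1, Wnt5a, Dkk1 and Lgr5, had no protein-coding row in the count table and were not analysed here. H9C2 is a line of myoblasts from embryonic rat heart, and its RNA was sequenced after PUM2, an RNA-binding protein that lowers the stability or translation of its target messages, had been reduced. The siPUM2 group held 3 libraries from cells transfected with small interfering RNA to PUM2, and the NC group held 3 libraries from control cells whose label names an empty vector. No dose or time of transfection is given in the labels, a non-targeting small interfering RNA is not mentioned, and separate cultures are not stated, so the p-values measure the spread between these libraries, which may be technical.

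Wnt proteins are secreted lipid-modified ligands. They bind Frizzled receptors with the co-receptors LRP5 and LRP6, and this signal, passed on by Dishevelled, stops a cytoplasmic complex of AXIN, APC and kinases from marking beta-catenin for destruction. Beta-catenin then enters the nucleus and activates genes with TCF and LEF factors, several of which encode inhibitors of the pathway itself. In the heart the pathway is known for its stage-dependent roles in cardiac progenitors and for its activation in fibroblasts after injury.

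The libraries held 27704702 to 30579237 counts, and the 44 genes took 0.137% to 0.141% of them in siPUM2 and 0.131% to 0.133% in NC. Levels are given as CPM (counts scaled to library size and by TMM between libraries) for a gene across libraries, and as the authors' FPKM (per length) where genes are set beside each other. Pum2 was measured at 127, 126 and 120 CPM in siPUM2, against 223, 228 and 225 CPM in NC, so 55.1% of the control message was left. Ribosomal RNA genes took 0.368% of the counts in siPUM2 replicate 3 and 0.287% to 0.313% in the other 5 libraries. The label calls the cells cardiomyocytes, but of 9 cardiomyocyte markers 5 (Myh6, Myh7, Actn2, Ryr2 and Tnni3) were under 1 CPM. Above it were 3 (Tnnt2, Nkx2-5 and Gata4), and Nppa had no row in the count table. Of 7 markers of skeletal myoblasts 5 were over 1 CPM, with sums of 359 to 384 CPM in siPUM2 and 344 to 348 CPM in NC, and of these Cdh15 and Des were called higher, Myog and Myh3 lower, and Myod1 was not called. All 5 smooth muscle markers were called higher in siPUM2, with summed levels of 12000 to 12500 CPM in siPUM2 and 10500 to 10700 CPM in NC. The cardiomyocyte markers summed to 466 to 520 CPM in siPUM2 and 304 to 362 CPM in NC, mostly Tnnt2, and the part of such shifts in the results below was not tested. Fibroblast markers summed to 8670 to 9000 CPM in siPUM2 and 9080 to 9220 CPM in NC, mostly Col1a1, which was called lower. Thy1 was called higher, and Dcn, Lum and Pdgfra were under 1 CPM. Macrophage markers summed to 38.6 to 40.8 CPM in siPUM2 and 36.8 to 37.6 CPM in NC, nearly all Cd14. Endothelial and neural markers stayed under 3 CPM in each library. In bulk RNA, fewer cells of a kind and less RNA per cell cannot be told apart.

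Promoters of 4 of these genes are shown because their messages are described at length below: Tcf7 and Axin2, both known as targets of the pathway, and Wnt9a and Rspo1, secreted proteins whose messages rose. Each run covers 250 bases before and 10 after the start of the gene in RefSeq (build GRCr8), written 5' to 3' on the strand of the gene. Capitals mark the TCF/LEF motif ATCAAAG, here on the opposite strand as CTTTGAT.
Tcf7, chr10:36954270-36954529, minus strand: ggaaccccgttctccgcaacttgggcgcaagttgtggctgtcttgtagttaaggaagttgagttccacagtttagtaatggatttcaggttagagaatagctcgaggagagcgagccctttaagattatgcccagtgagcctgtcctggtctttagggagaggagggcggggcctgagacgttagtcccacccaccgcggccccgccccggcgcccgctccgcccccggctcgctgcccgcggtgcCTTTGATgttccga
Axin2, chr10:94398535-94398794, plus strand: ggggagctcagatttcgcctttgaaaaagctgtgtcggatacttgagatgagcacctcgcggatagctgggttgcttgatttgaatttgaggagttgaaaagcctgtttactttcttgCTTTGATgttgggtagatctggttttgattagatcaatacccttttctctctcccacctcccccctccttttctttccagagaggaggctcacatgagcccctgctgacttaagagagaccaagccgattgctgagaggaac
Wnt9a, chr10:44593441-44593700, plus strand: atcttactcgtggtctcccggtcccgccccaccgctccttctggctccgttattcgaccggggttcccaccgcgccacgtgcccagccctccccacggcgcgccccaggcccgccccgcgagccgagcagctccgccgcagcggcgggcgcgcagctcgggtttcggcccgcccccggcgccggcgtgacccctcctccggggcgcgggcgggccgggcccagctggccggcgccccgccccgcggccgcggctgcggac
Rspo1, chr5:142536040-142536299, plus strand: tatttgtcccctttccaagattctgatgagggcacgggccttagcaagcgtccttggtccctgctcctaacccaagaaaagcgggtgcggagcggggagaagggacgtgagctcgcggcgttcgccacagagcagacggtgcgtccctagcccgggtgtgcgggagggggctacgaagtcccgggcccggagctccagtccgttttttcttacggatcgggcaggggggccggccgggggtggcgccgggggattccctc
The motif, sought on both strands in windows of 300 bases (250 before and 50 after the start), was in the promoters of 3 of the 30 genes with a promoter in RefSeq, namely Tcf7, Axin2 and Nkd1, and in 3.63% of all 33469 rat promoters. In Axin2 it began 132 bases before the start and in Tcf7 it spanned the start itself. The Wnt9a run held 81.2% G and C, against 47.7% in that of Axin2. A match is a string of letters in a window, and no binding was measured.

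Of the 44 genes, 35 had enough counts for a test, and 11 of those (31.4%) were called at an adjusted p under 0.05 in edgeR's quasi-likelihood test. Among all 12985 genes tested 28.4% were called, so the share among Wnt genes lay near the background. In siPUM2, 6 rose (Wnt9a, Wls, Rspo1, Dvl1, Apc and Nkd2; background 15.1%) and 5 fell (Wnt4, Porcn, Fzd2, Lgr4 and Tcf7; background 13.3%). The changes were small, between 1.08-fold for Nkd2 and 1.41-fold for Tcf7. The median log2 fold change of the 35 was 0.01, beside 0.001 for all genes tested. The groups did not overlap for 10 of the 35, where this held for 39.9% of all genes tested. Only 7 of the 11 were called by DESeq2, and 7 without NC replicate 1. Without NC replicate 2 the calls were 3 higher and 6 lower. The calls of Wnt9a, Wls, Fzd2, Rspo1, Lgr4 and Tcf7 held in each of the 16 alternative fits.

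**Figure D1:**
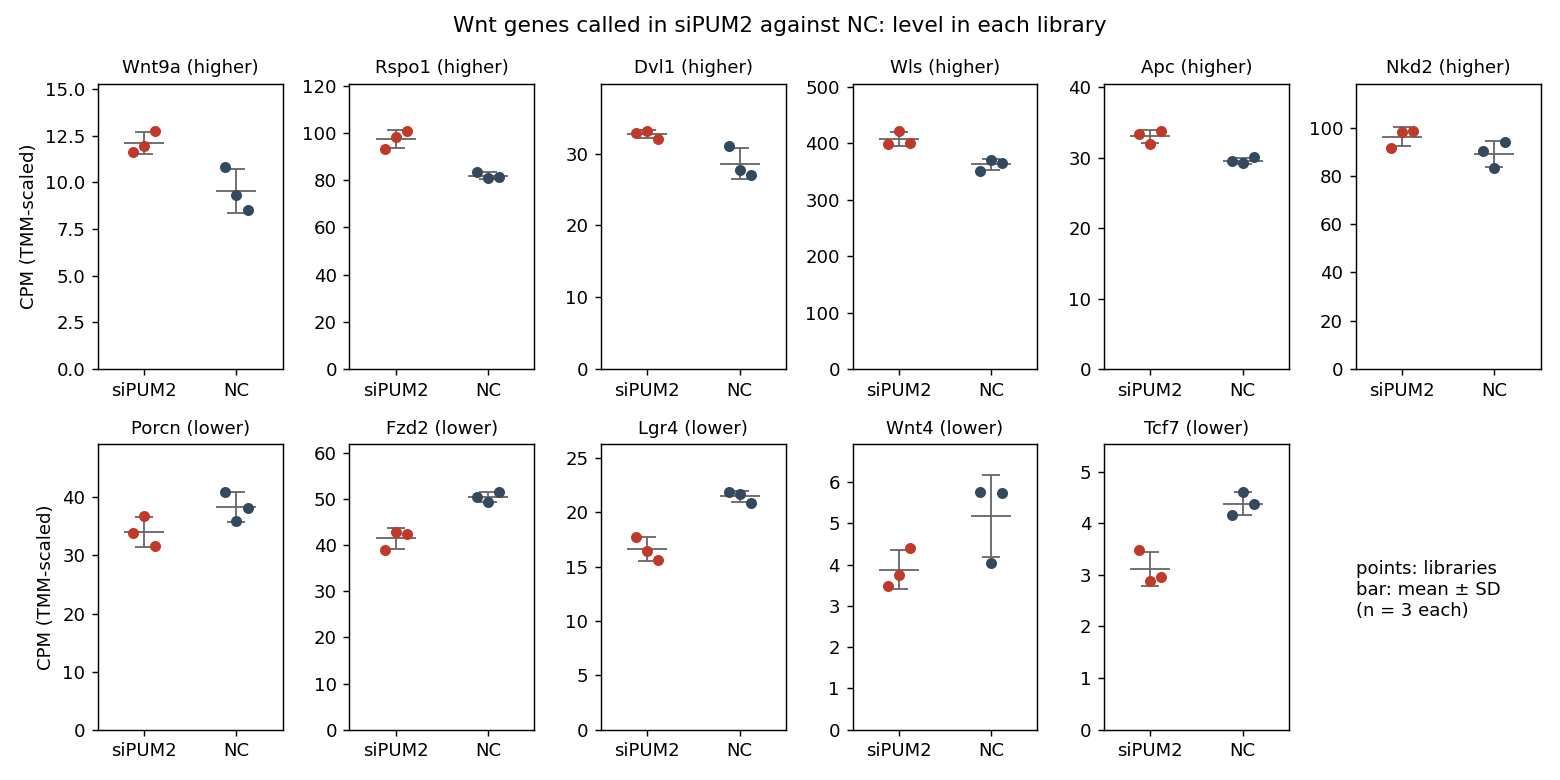
Level of the 11 called genes in each library, as TMM-scaled CPM on axes that start at 0, with points for libraries and a bar for the mean ± SD (n = 3 each). The siPUM2 and NC points are apart for 8 of the 11 and overlap for Wnt4, Porcn and Nkd2.

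Of 5 Wnt ligands tested, Wnt9a rose and Wnt4 fell, and these 2 with Wnt6 carried most of the ligand message. Wnt9a, a ligand studied mainly in cartilage, joints and blood stem cell development, was measured at 11.6, 11.9 and 12.7 CPM in siPUM2, against 10.8, 9.31 and 8.51 CPM in NC. The groups did not overlap, and the level was 127% of that in NC (log2 fold change 0.35 ± 0.0898 SE, adjusted p = 0.00407). Wnt4, a ligand needed for kidney and gonad development, was measured at 3.49, 3.75 and 4.40 CPM in siPUM2, against 5.76, 4.04 and 5.74 CPM in NC. NC replicate 2 lay within the range of siPUM2, and the level was 74.8% of that in NC (log2 fold change -0.41 ± 0.146 SE, adjusted p = 0.0331). Over the fits without 1 library the log2 fold change stayed between -0.57 and -0.33, but this call did not hold in all of them. It was lost without siPUM2 replicate 1 (adjusted p = 0.123), siPUM2 replicate 2 (0.0999), NC replicate 1 (0.158) or NC replicate 3 (0.167), and in DESeq2 (0.088).

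Wnt6, which marks epithelia in the embryo, was not called (4.85 ± 0.428 CPM in siPUM2 and 5.49 ± 0.836 CPM in NC, SD, n = 3 each). Wnt5b and Wnt7b had 6 to 20 counts in every library and were not called. The remaining 5 ligands, Wnt11, Wnt10a, Wnt3, Wnt3a and Wnt10b, had 0 to 8 counts and were not tested. Wnt9a and Wnt3a lie next to each other in the genome, as do Wnt6 and Wnt10a, and in both pairs only the first was measured above a few counts.

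Summed ligand FPKM was 6.06, 6.31 and 6.92 in siPUM2, against 6.78, 6.35 and 5.74 in NC, and these ranges overlapped. Wnt9a made up 50.8%, 49.9% and 48.5% of that sum in siPUM2, against 42.2%, 38.9% and 39.4% in NC. Every siPUM2 library was above every NC library, by 9.62 percentage points on average (exact two-sided permutation p = 0.1, the smallest that 3 against 3 can give). Wnt6 made up 32.3 ± 0.562% in siPUM2 and 37.5 ± 4.81% in NC, and Wnt4 12.6 ± 0.649% in siPUM2 and 17.4 ± 3.86% in NC (SD, n = 3 each). For both, every siPUM2 library was below every NC library (exact two-sided permutation p = 0.1). Shares of 1 sum are tied to each other, and they rest on the same libraries as the call of Wnt9a. They are therefore a description and not separate evidence.

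**Figure D2:**
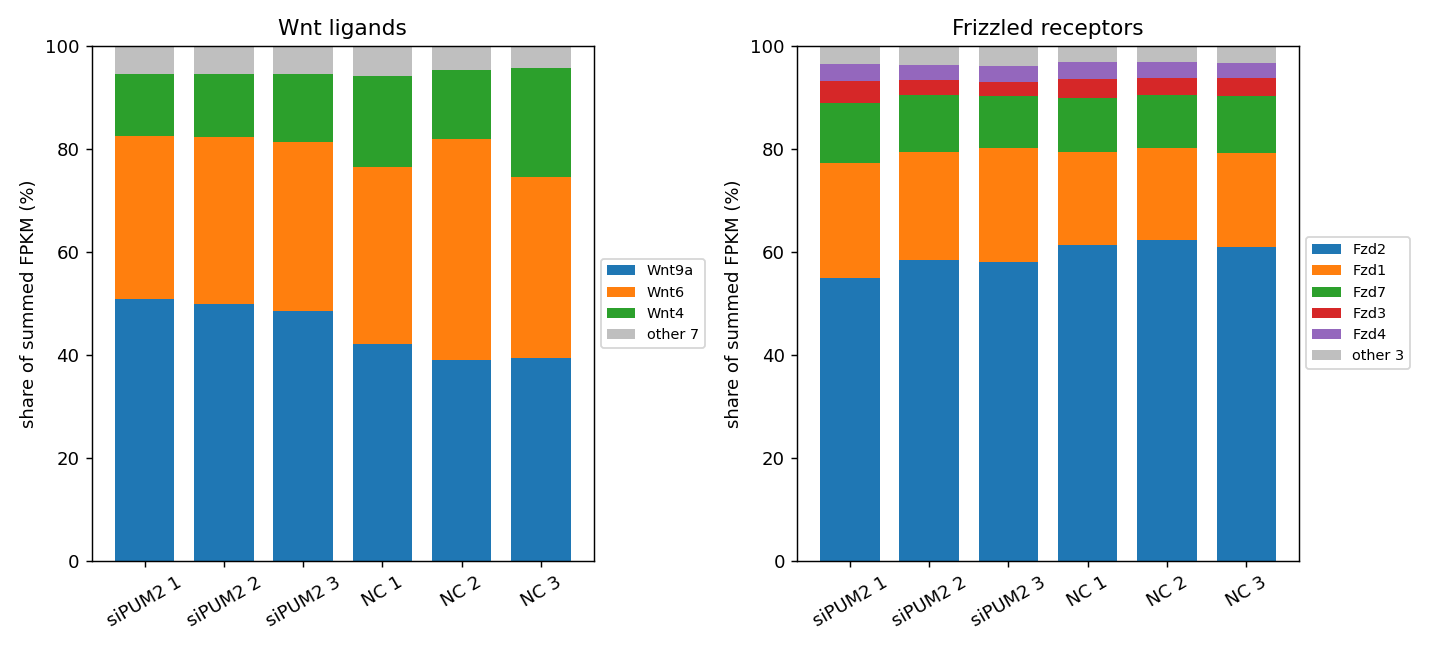
Share of each Wnt ligand and each Frizzled receptor in the summed FPKM of its family, in percent, per library, with siPUM2 on the left. Wnt9a takes 48.5% to 50.8% of ligand message in siPUM2 and 38.9% to 42.2% in NC, and Fzd2 takes 54.8% to 58.5% of Frizzled message in siPUM2 and 60.9% to 62.3% in NC. Fzd1 takes 20.85% to 22.49% of Frizzled message in siPUM2 and 17.84% to 18.32% in NC.

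Of the 2 genes here that ready a Wnt for secretion, Wls was called higher and Porcn lower, and the Porcn call did not hold in every fit. Wls, the membrane carrier that escorts Wnt proteins to the cell surface, had the highest FPKM of the 44 genes, at 90.2, 95.2 and 90.1 FPKM in siPUM2, against 79.4, 83.8 and 83.0 FPKM in NC. All siPUM2 libraries were above all NC libraries, at 112% of the NC level in CPM (log2 fold change 0.17 ± 0.0276 SE, adjusted p = 3.18e-05). Porcn, the acyltransferase that attaches the lipid, fell to 33.9, 36.7 and 31.6 CPM in siPUM2, against 40.9, 35.9 and 38.2 CPM in NC (log2 fold change -0.17 ± 0.0613 SE, adjusted p = 0.0393). siPUM2 replicate 2 lay above NC replicate 2. The Porcn call was lost in DESeq2 (adjusted p = 0.0592) and without siPUM2 replicate 1 (0.0703), siPUM2 replicate 3 (0.130), NC replicate 1 (0.187) or NC replicate 3 (0.0736).

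Of 8 Frizzled receptors tested, Fzd2 fell and the other 7 were not called. Fzd2, the most abundant of them in these cells, was measured at 38.9, 43.0 and 42.5 CPM in siPUM2, against 50.4, 49.3 and 51.6 CPM in NC. The groups were apart, at 82.2% of the NC level (log2 fold change -0.28 ± 0.0508 SE, adjusted p = 8.84e-05). Fzd1, the next by FPKM and close to Fzd2 in sequence, was not called (36.4 ± 1.01 CPM in siPUM2 and 34.1 ± 1.62 CPM in NC), nor was Fzd7, the third of that subfamily (11.7 ± 0.772 CPM in siPUM2 and 12.9 ± 0.905 CPM in NC; SD, n = 3 each).

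The rest of the Frizzled family was at 0.353 to 1.34 FPKM in NC. Fzd4, the receptor of the non-Wnt ligand norrin, had lower values in all siPUM2 libraries (7.60 to 8.01 CPM) than in NC (8.28 to 9.31 CPM) but was not called (adjusted p = 0.239). Fzd3, which acts in axon guidance and planar polarity, was not called either (log2 fold change -0.28, adjusted p = 0.182). Without siPUM2 replicate 1, its highest siPUM2 library, it was (log2 fold change -0.48, adjusted p = 0.0337), while without siPUM2 replicate 3 the log2 fold change was -0.18 (adjusted p = 0.463). Fzd8 was at 3.21 ± 0.662 CPM in siPUM2 and 3.46 ± 0.420 CPM in NC, and Fzd6 at 2.08 ± 0.295 CPM in siPUM2 and 2.06 ± 0.122 CPM in NC (SD, n = 3 each). Fzd5 had 22 to 31 counts in siPUM2 and 17 to 34 counts in NC, and these 3 genes were not called. Summed Frizzled FPKM was 32.9, 34.0 and 33.8 in siPUM2, against 38.1, 36.7 and 39.4 in NC, with every siPUM2 library below every NC library (exact two-sided permutation p = 0.1, the smallest possible here). Most of this difference lay in Fzd2, at 19.2 FPKM in siPUM2 and 23.4 FPKM in NC, while Fzd1 was at 7.32 and 6.87 FPKM.

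The co-receptors were not called. Lrp6 was at 51.7 ± 0.575 CPM in siPUM2 and 49.6 ± 1.52 CPM in NC. Lrp5 was at 10.9 ± 0.195 CPM in siPUM2 and 10.1 ± 0.376 CPM in NC, with all siPUM2 libraries above NC (log2 fold change 0.11 ± 0.0825 SE, adjusted p = 0.369). Secreted antagonists were scarce. Sfrp4, a decoy that resembles the Wnt-binding part of Frizzled, was at 1.83 ± 0.484 CPM in siPUM2 and 1.96 ± 0.361 CPM in NC. Dkk3, a divergent Dickkopf, had 15 to 30 counts in siPUM2 and 24 to 32 counts in NC, and neither was called. Dkk4 had at most 8 counts in a library and was not tested.

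R-spondin and its receptor went opposite ways. Rspo1, a secreted protein that strengthens Wnt signals by removing the E3 ligases that clear Frizzled from the membrane, was the third most abundant of the 44 genes by FPKM (39.5 ± 1.44 in siPUM2 and 33.3 ± 0.592 in NC). It was measured at 93.4, 98.3 and 101 CPM in siPUM2, against 83.7, 80.9 and 81.4 CPM in NC. All 3 siPUM2 libraries exceeded all NC libraries, at 119% of the NC level (log2 fold change 0.25 ± 0.0326 SE, adjusted p = 8.66e-07), the lowest adjusted p of the 35 tested. Lgr4, the R-spondin receptor found in these cells, was measured at 17.8, 16.4 and 15.6 CPM in siPUM2, against 21.9, 21.7 and 20.9 CPM in NC. The groups were apart, at 77.3% of the NC level (log2 fold change -0.37 ± 0.0632 SE, adjusted p = 4.53e-05).

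The other receptor, Lgr6, had 2 to 13 counts in siPUM2 and 3 to 12 counts in NC and was not called. Znrf3, one of the E3 ligases that R-spondins act on and itself a target of the pathway, had 12, 13 and 29 counts in siPUM2, against 33, 28 and 19 counts in NC. The groups overlapped through siPUM2 replicate 3 and NC replicate 3, and it was not called (log2 fold change -0.51 ± 0.343 SE, adjusted p = 0.293). Its size rested on single libraries, at -1.01 without siPUM2 replicate 3 (adjusted p = 0.054), -0.29 without siPUM2 replicate 1 (adjusted p = 0.637), -0.34 without siPUM2 replicate 2 (adjusted p = 0.593) and -0.29 without NC replicate 1 (adjusted p = 0.662). Its relative Rnf43 had 1 to 14 counts and was not tested, nor was Rspo4, with a single count in 1 library.

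**Figure D3:**
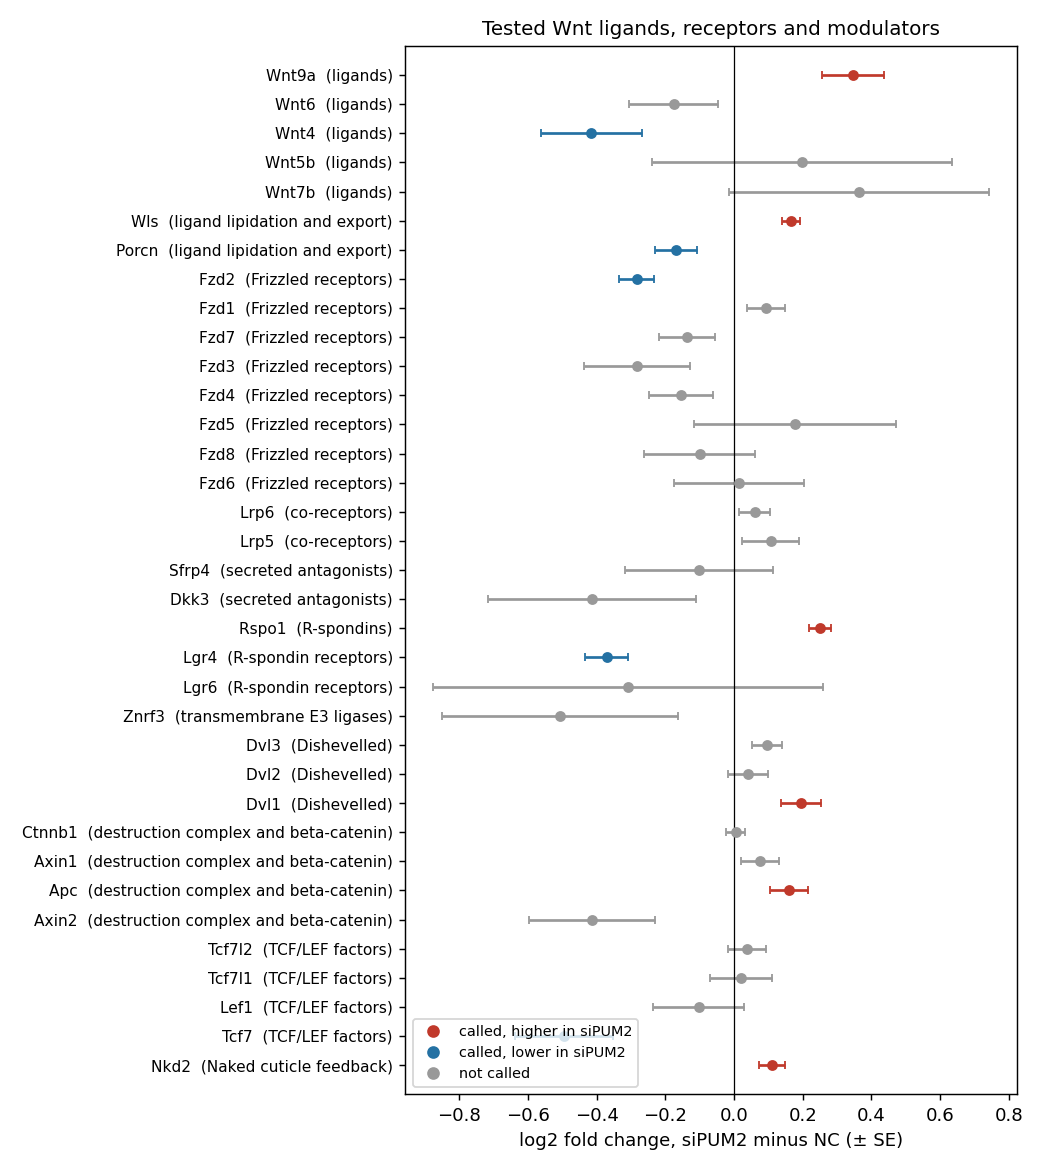
Log2 fold change (siPUM2 minus NC, ± SE) of the 35 tested Wnt genes, grouped by role from ligands at the top to nuclear factors and feedback inhibitors at the bottom. Called genes lie between -0.49 (Tcf7) and 0.35 (Wnt9a), and Ctnnb1 sits near 0 at 0.005.

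Inside the cell, the message of beta-catenin itself did not pass the test. Ctnnb1, the second most abundant of the 44 genes by FPKM, was measured at 265, 274 and 261 CPM in siPUM2, against 271, 266 and 259 CPM in NC (log2 fold change 0.005 ± 0.0268 SE, adjusted p = 0.922). The ranges overlapped throughout. The pathway controls beta-catenin by degrading the protein, which was not measured.

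Dvl1, one of 3 Dishevelled genes, rose to 32.9, 33.1 and 32.1 CPM in siPUM2, against 31.1, 27.7 and 27.0 CPM in NC (log2 fold change 0.19 ± 0.0590 SE, adjusted p = 0.0133). The groups did not overlap, but the call was lost without NC replicate 2 (adjusted p = 0.0576) or NC replicate 3 (0.0713). Dvl3 (log2 fold change 0.10, adjusted p = 0.096) and Dvl2 (0.04, adjusted p = 0.644) were not called.

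In the destruction complex, Apc rose to 33.4, 32.0 and 33.8 CPM in siPUM2, against 29.5, 29.2 and 30.1 CPM in NC (log2 fold change 0.16 ± 0.0546 SE, adjusted p = 0.0275). The groups were apart. The call was lost in DESeq2 (adjusted p = 0.0648) and without siPUM2 replicate 1 (0.0607), siPUM2 replicate 3 (0.0738), NC replicate 1 (0.059) or NC replicate 2 (0.0759). Axin1, the scaffold of the complex, was not called (45.3 ± 3.78 CPM in siPUM2 and 43.0 ± 1.53 CPM in NC).

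Of the 4 nuclear factors, Tcf7 fell and the other 3 were not called. Tcf7, which encodes TCF1 and is best known from T cells, was measured at 3.49, 2.88 and 2.95 CPM in siPUM2, against 4.15, 4.61 and 4.37 CPM in NC. The groups did not overlap, and at 71.0% of the NC level this was the lowest ratio among the called genes (log2 fold change -0.49 ± 0.142 SE, adjusted p = 0.00886). By FPKM Tcf7 was the lowest of the TCF and LEF genes (0.250 ± 0.0265 in siPUM2 and 0.353 ± 0.0153 in NC). Tcf7l2, the most abundant TCF gene here, was at 8.37 ± 0.664 FPKM in siPUM2 and 8.17 ± 0.117 FPKM in NC, and it was not called (log2 fold change 0.04, adjusted p = 0.677). Tcf7l1 (0.02) and Lef1 (-0.10) were not called either.

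Of the feedback inhibitors that also serve as reporters of the pathway, Nkd2 was called and Axin2 was not. Axin2, the inducible scaffold most often used to read Wnt activity, had 2.06, 2.34 and 2.58 CPM in siPUM2, against 2.79, 2.52 and 3.98 CPM in NC. NC replicate 2 lay below siPUM2 replicate 3, and the gene was not called (log2 fold change -0.41 ± 0.184 SE, adjusted p = 0.0953), although it was without NC replicate 2 (-0.55, adjusted p = 0.0464). Without NC replicate 3, its highest library, the log2 fold change was -0.19 (adjusted p = 0.550). Nkd2, an inhibitor that binds Dishevelled, was far more abundant (18.1 ± 0.716 FPKM in siPUM2 and 16.8 ± 1.05 FPKM in NC) and was called higher. It was measured at 91.7, 98.4 and 98.6 CPM in siPUM2, against 90.3, 83.3 and 94.0 CPM in NC, with overlap at NC replicate 3 (log2 fold change 0.11 ± 0.0375 SE, adjusted p = 0.0273). Its call was lost in DESeq2 (adjusted p = 0.094) and without siPUM2 replicate 2 (0.138), siPUM2 replicate 3 (0.117), NC replicate 1 (0.0577) or NC replicate 2 (0.290, log2 fold change 0.06). Nkd1 had at most 5 counts.

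Further genes of the pathway included surface proteins that moved in both directions. Of 75 such genes listed by role, 63 were tested, and 14 rose, 7 fell and 42 were not called. The share of 33.3% stands beside the background of 28.4%. The 5 with the lowest p were Gpc4, Draxin, Ryk, Tle5 and Camk2d. Gpc4, a glypican that holds Wnt ligands at the cell surface, rose to 242 ± 2.71 CPM in siPUM2, against 207 ± 5.44 CPM in NC (log2 fold change 0.22, adjusted p = 1.71e-07). Ryk, a Wnt-binding receptor with a kinase-like domain, fell to 118 ± 1.14 CPM in siPUM2, against 134 ± 2.74 CPM in NC (log2 fold change -0.18, adjusted p = 8.93e-06). Draxin, a secreted axon guidance protein known from chick and mouse, fell most of the 21 called, to 2.61 ± 0.653 CPM in siPUM2, against 5.43 ± 0.605 CPM in NC (log2 fold change -1.05, adjusted p = 7.16e-06). Tle5, a short member of the Groucho family (log2 fold change 0.12), and Camk2d, the main cardiac form of calcium/calmodulin kinase II (0.14), rose. By role, 7 of 21 tested genes of the planar polarity and calcium branches rose and 1 fell, and 3 of 8 casein and glycogen synthase kinases rose, of which DESeq2 called 1 (background 15.1% higher and 13.3% lower). Of 8 other receptors and co-receptors 3 rose and 2 fell, and of 4 other secreted modulators 2 fell. Of 16 nuclear partners of beta-catenin 1 rose and 2 fell, where DESeq2 called 1 higher and 1 lower. In the planar polarity and calcium branches DESeq2 called 6 higher and 1 lower of 19 genes. For the other receptors and the other secreted modulators DESeq2 gave the same counts as edgeR. Among 6 ubiquitin ligases and tankyrases edgeR called 0, with 2 at an unadjusted p under 0.05, and DESeq2 and limma voom also called 0.

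Among genes known as general targets of Wnt and beta-catenin, more fell than rose. Of 40 listed, 27 were tested, and 11 fell, 4 rose and 12 were not called, with a median log2 fold change of -0.11 (0.001 for all genes tested). The share called was 55.6%, beside the background of 28.4%, and 5 of the 27 (Axin2, Nkd2, Lef1, Tcf7 and Znrf3) are among the 44 genes as well. Without these, 10 fell and 3 rose of 22. Such genes, Myc and Jun among them, answer to many signals besides Wnt. This list and that of further pathway genes were chosen with earlier results of these data known. Their shares are therefore not independent of the data, and no excess over the background is drawn from them.

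The 5 of these targets with the lowest p went both ways. Birc5, which encodes the mitotic protein survivin, fell to 51.2 ± 2.13 CPM in siPUM2, against 65.0 ± 3.11 CPM in NC (log2 fold change -0.35, adjusted p = 9.63e-07). Fosl1, of the AP-1 family, fell to 55.6 ± 1.79 CPM in siPUM2, against 68.4 ± 1.41 CPM in NC (-0.30, adjusted p = 1.47e-06), and Id2, an inhibitor of helix-loop-helix factors, to 16.6 ± 1.90 CPM in siPUM2, against 23.8 ± 1.70 CPM in NC (-0.52, adjusted p = 2.30e-06). Ccn4, a matricellular protein first described as Wnt-induced, rose to 327 ± 7.23 CPM in siPUM2, against 285 ± 1.87 CPM in NC (0.19, adjusted p = 9.63e-07). Plaur, the urokinase receptor, rose to 109 ± 2.12 CPM in siPUM2, against 93.4 ± 5.21 CPM in NC (0.22, adjusted p = 8.93e-06). Chosen after their values were seen, the textbook targets Myc (log2 fold change -0.32, adjusted p = 0.000259) and Ccnd1 (-0.11, adjusted p = 0.000561) also fell, and Fgf18, a growth factor of cartilage and bone, rose most of the 4 called higher, to 3.70, 3.03 and 4.19 CPM in siPUM2, against 2.40, 2.22 and 2.19 CPM in NC (log2 fold change 0.69, adjusted p = 0.00219).

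**Figure D4:**
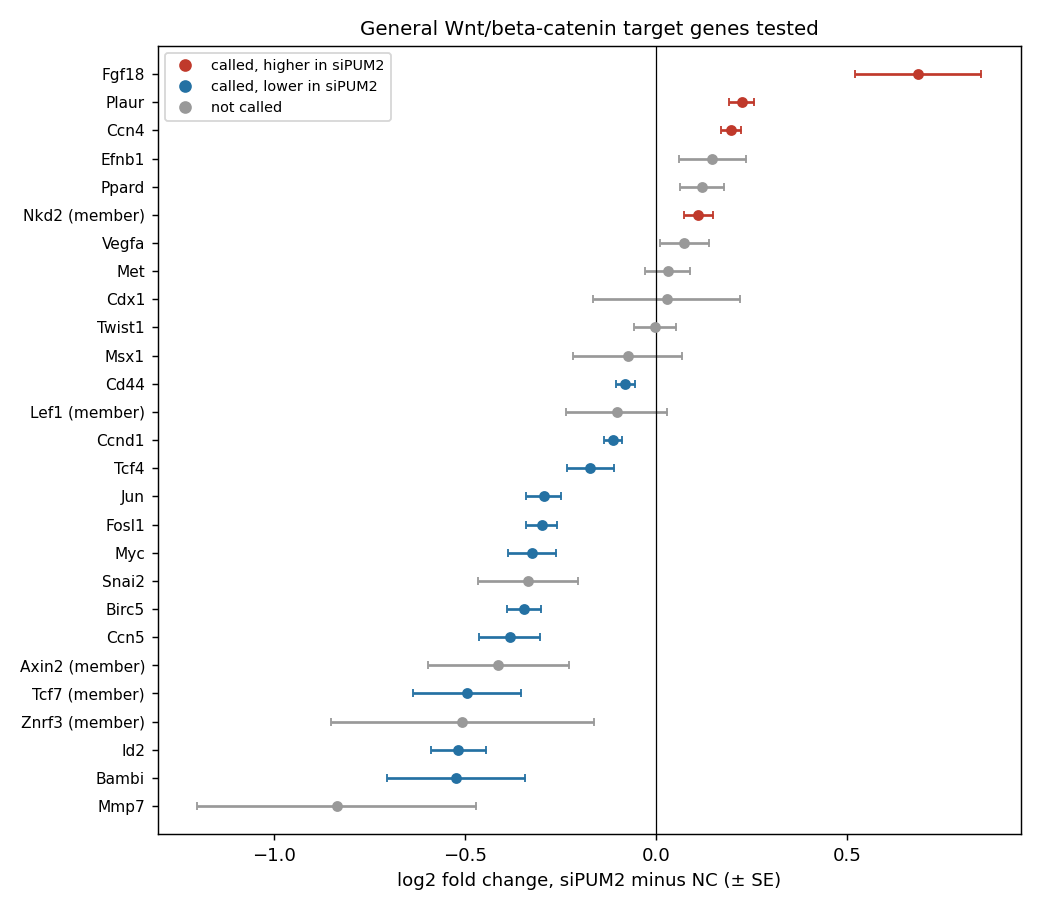
Log2 fold change (siPUM2 minus NC, ± SE) of the 27 tested general targets of Wnt and beta-catenin, ordered by size, with those that belong to the 44 Wnt genes marked as members. Of the called genes, 4 lie above 0 and 11 below it.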

How the data were processed

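RNA-seq was analysed in 6 libraries, grouped by title as siPUM2 and NC. The authors deposited raw counts for each gene, and a second deposited table holds their FPKM values, per the file headers. HISAT2, DESeq2 and the build mRatBN7.2 appear in the submitters' processing notes without versions, and how reads were counted is not given in the sources used here. Reads of similar genes, such as Fzd1, Fzd2 and Fzd7, may have been split by that step.

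Counts were tested with edgeR 4.0.16 (glmQLFit, glmQLFTest) in R 4.3.3, with TMM factors (0.995 to 1.003), filterByExpr and group as the term. The filter left 12985 genes, over all of which p was adjusted after Benjamini and Hochberg. SE was derived from the F statistic. The fits were also run on simulated counts that gave every gene the same dispersion, and no support for the calls is drawn from them. Alternatives used DESeq2 1.42.0 and limma 3.58.1 (pseudocounts 1 and 0.1). A Wnt gene is named with values where it averaged 1 CPM or more, or was called. Others are named with their counts, and Znrf3 also with its fold change, chosen after it was seen. From each further list, the 5 called genes with the lowest p are named. The genes and lists were chosen with earlier results of these data known. Libraries of 1 group differed by more than sampling noise. Promoters are from RefSeq (GRCr8).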

Additional observations from a re-analysis of the deposited data

How the results depend on the processing

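The 11 called Wnt genes became 7 with DESeq2, 7 on log2(FPKM + 1), 7 on log2(FPKM + 0.1), 6 at an adjusted p under 0.01, and 7 to 9 when each library was left out in turn. Wnt4, Porcn, Apc and Nkd2 were the genes lost with DESeq2 and on both FPKM scales. The split was 6 higher and 5 lower, and 3 higher and 6 lower without NC replicate 2. With other scaling factors, limma voom or other filters all 11 remained called and none was added. For other pathway genes the 21 calls became 13 on log2(FPKM + 0.1), and the counts of targets (12 to 16) and of all genes (2486 to 3779) stayed within 1.5 times. Replicate numbers are shared between the groups, but same-numbered libraries did not deviate together (correlations 0.034, 0.020 and 0.003), and the fit with the number as a block called 11 of the Wnt genes, the same as without it.

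Some uncalled genes changed sign, and the cause was not tested. With upper-quartile scaling Ctnnb1 was at -0.0053, and Fzd6 was at -5e-04 on log2(FPKM + 1) and -0.0045 on log2(FPKM + 0.1). Over the fits without 1 library the log2 fold change ranged from -0.0949 to 0.48 for Wnt5b, -0.0021 to 0.43 for Fzd5, -0.28 to 0.0172 for Fzd8, -0.11 to 0.0843 for Fzd6, -0.34 to 0.0624 for Sfrp4, -1.20 to 0.11 for Lgr6, -0.0116 to 0.0869 for Dvl2, -0.0144 to 0.0163 for Ctnnb1, -0.0052 to 0.10 for Tcf7l2, -0.0496 to 0.0861 for Tcf7l1 and -0.19 to 0.0052 for Lef1. The pseudocount of 1 lowered the fold change of low genes, to -0.11 for Tcf7 and -0.38 for Draxin. The difference in the Wnt9a share was 8.99 to 10.6 percentage points without 1 library, and 10.3 on CPM. Depth limits the low members: 1 count was worth 0.0326 to 0.0360 CPM, and 3 counts, taken as the floor, 0.0978 to 0.108 CPM.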

Other observations

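Genes outside the lists whose descriptions name Wnt or Frizzled were looked up after the data were seen. Mfrp, a membrane protein with a Frizzled-like domain known from the eye, rose to 59.8, 56.2 and 54.1 CPM in siPUM2, against 38.4, 37.8 and 43.0 CPM in NC (log2 fold change 0.51 ± 0.0538 SE, adjusted p = 2.37e-08, edgeR). The groups did not overlap, and the change was larger than that of any called gene among the 44. Its neighbour C1qtnf5, which in mouse and human shares a transcript with Mfrp, rose to 232, 231 and 233 CPM in siPUM2, against 191, 195 and 193 CPM in NC (log2 fold change 0.26, adjusted p = 4.00e-09), and how the counting split reads between them is not given. Smo, the Frizzled-class receptor of the Hedgehog pathway, fell to between 33.0 and 35.0 CPM in siPUM2, against 36.2 to 41.8 CPM in NC (log2 fold change -0.21, adjusted p = 0.00819). Lbh, Mcc and Frat2 were not called.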
